A study of Mus musculus with 51 samples.

Results

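The regions described here are the binding sites of HELLS that lie away from promoters in mouse testis. HELLS was mapped by chromatin immunoprecipitation (ChIP-seq) in testis of B6-Prdm9CAST-KI animals (KI), and a peak was kept if it was autosomal and overlapped no window of 1 kb either side of an annotated transcription start. Of 2675 deposited HELLS peaks, 1279 (47.8%) met this rule, 1382 lay at promoters and 14 on the sex chromosomes. The distal peaks were spread over all autosomes, from 40 on chromosome 19 to 110 on chromosome 2. They had a median width of 593 bases (range 253 to 2395), and their midpoints lay a median of 15480 bases from the nearest transcription start (range 1225 to 514871).

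HELLS is a SNF2-family ATPase that remodels nucleosomes. PRDM9 is a histone methyltransferase of meiotic prophase that binds DNA through a zinc-finger array and marks the neighbouring nucleosomes, and the sites it marks become hotspots of recombination. Alleles of Prdm9 differ in their zinc fingers and so bind different sequences. DMC1 is the recombinase that coats the DNA ends left by meiotic breaks. ATAC-seq reports open DNA, and H3K9ac and H3K4me3 are histone marks found at active promoters and, in meiotic cells, at hotspots.

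The distal sites were read in germ cells enriched from animals of 12 to 14 days post-partum. The strains were C57BL/6J (B6; ATAC n = 2, H3K9ac n = 3), B6-Prdm9CAST-KI, which carries the CAST allele of Prdm9 (ATAC n = 2, H3K9ac n = 2), Hells conditional knockouts (CKO; ATAC n = 3, H3K4me3 n = 3), Hells wt (ATAC n = 2, H3K4me3 n = 1), Spo11/+ (H3K4me3 n = 1), Spo11/Spo11 mutants (H3K9ac n = 1, H3K4me3 n = 2) and (B6xCAST) F1 hybrids (ATAC n = 2, H3K9ac n = 1). HELLS ChIP (n = 2), its IgG control (n = 1) and its input (n = 1) came from sonicated whole testis of KI animals of the same age, while the histone ChIP used MNase-digested germ cells. DMC1 peak lists, 1 per genotype, came from testis of 6-week-old Hells het and Hells CKO animals. Each DMC1 list stands for 2 samples. The labels do not name a Cre driver, the Prdm9 allele of the Hells and Spo11 animals, or whether libraries of a group came from separate animals, so that the spread behind each p-value is that between libraries and may be technical. The peaks were called in KI alone, and sites bound by HELLS in B6 testis only are not among them.

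Libraries held between 6416704 and 42007820 counts in their regions, and 4321370 to 5003968 per allele in the F1 ATAC libraries. Promoter regions were present for 8 of 8 germ cell markers in the B6 and KI ATAC table (summed level 381 to 500 CPM, that is counts scaled to a common library size) and for 0 of 4 blood markers, and also for 6 of 6 Sertoli cell markers (226 to 280 CPM), 4 of 4 peritubular and stromal markers (126 to 142 CPM) and 2 of 5 Leydig cell markers (31.0 to 33.3 CPM). In the H3K9ac table the germ cell sum was 219 to 264 CPM in B6 and 295 and 297 CPM in KI, and the Sertoli sum 453 to 623 and 424 to 576 CPM. The part of cell makeup in the results was not tested, and in bulk samples fewer cells of a type and less signal per cell cannot be told apart. Library identifier series followed the strain in the B6 and KI ATAC and H3K9ac libraries, so that series and strain cannot be told apart there.

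To see what the distal peaks share in sequence, 200 bases around each midpoint were searched on both strands, and the search used members on odd-numbered chromosomes only. Among words of 8 bases held by at least 5% of those members, AAAGGTCA (reverse complement TGACCTTT) had the highest ratio of member windows to flanking windows 1 kb away. It was present in 6.59% of 698 odd-chromosome members against 0.645% of their flanks. On the even-numbered chromosomes, which had no part in the choice, it was present in 5.51% of 581 members against 0.602% of their flanks. Over all autosomes it was present in 0.362% of promoter HELLS peaks and 1.39% of other distal ATAC regions. In the RefSeq promoters of the mm10 build, cut to the same length, 1.08% held it. The bases beside the aligned words gave the consensus AAAGGTCANANNNNNANNC, whose start is the word itself. With at most 2 of its 11 fixed letters mismatched, the consensus was found in 41.5% of even-chromosome members against 9.21% of their flanks and 4.70% of promoter HELLS peaks.

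A position matrix of 20 columns was then built from the best consensus matches of the odd-chromosome members (274 sites), with the score passed by 5.01% of their flanks as its threshold. This matrix was added after the word shares were seen. A match was present in 413 of 581 even-chromosome members (71.1%, exact 95% interval 67.2 to 74.7), in 5.42% of their flanks (4.19 to 6.88), in 8.90% of promoter HELLS peaks (7.45 to 10.5), in 8.65% of other distal ATAC regions and in 4.02% of 32851 RefSeq promoters. The intervals cover counting error only. Of the 413 matches, 71.2% lay within 50 bases of the peak midpoint and 39.2% within 25, with a median offset of 34.5 bases. A match is a description of letters and does not show that a protein was bound.

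**Figure D1:**
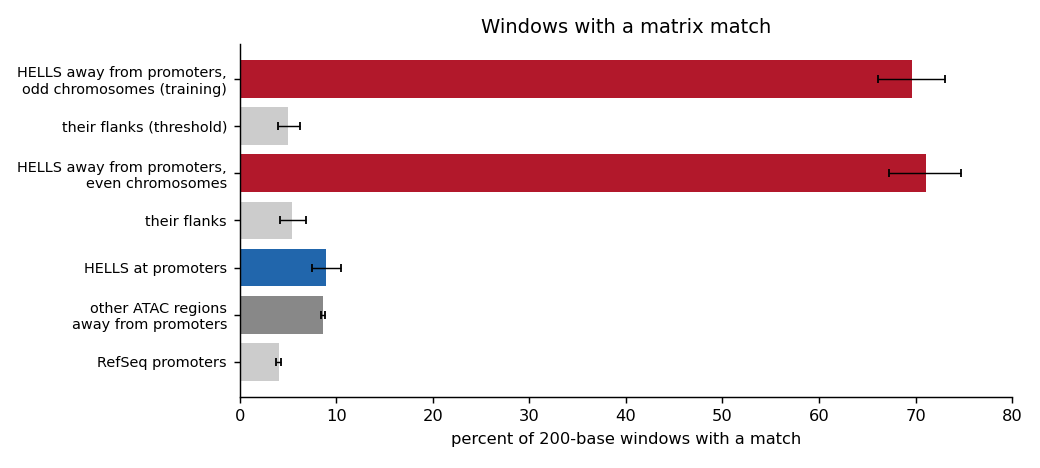
Share of 200-base windows with a match to the position matrix, in percent, for each set of regions; bars start at 0 and whiskers are exact 95% binomial intervals. Distal HELLS peaks on even-numbered chromosomes stand at 71.1% and promoter HELLS peaks at 8.90%; the odd-numbered chromosomes trained the matrix.

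The windows below show the best-scoring site, with 25 bases either side, for 4 of the 6 members with the most HELLS counts and for the 4 members with the most HELLS counts among those whose ATAC signal was not called between KI and B6. Capitals mark a site past the matrix threshold of 9.94, and a window without capitals holds none. Sequences are from the mm10 reference, 5′ to 3′ on the strand given.
Scube2 exon, chr7:109845917-109845986, minus strand: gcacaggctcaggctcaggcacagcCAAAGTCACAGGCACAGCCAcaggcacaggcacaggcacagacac
Trpm6 intron, chr19:18793985-18794054, plus strand: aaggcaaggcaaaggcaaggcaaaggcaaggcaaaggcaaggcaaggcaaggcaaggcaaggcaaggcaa
Intergenic, nearest Ide, chr19:37264401-37264470, plus strand: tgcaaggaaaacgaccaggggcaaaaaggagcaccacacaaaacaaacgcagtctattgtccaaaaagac
Intergenic, nearest Erc2, chr14:27617428-27617497, minus strand: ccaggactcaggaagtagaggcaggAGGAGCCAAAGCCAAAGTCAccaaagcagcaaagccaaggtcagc
Not called, nearest Gm21182, chr8:20550488-20550557, minus strand: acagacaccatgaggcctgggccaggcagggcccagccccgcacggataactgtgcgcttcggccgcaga
Not called, nearest Ccr1, chr9:123925821-123925890, minus strand: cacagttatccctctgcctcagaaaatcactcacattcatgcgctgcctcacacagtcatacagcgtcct
Not called, Cpt1a intron, chr19:3325622-3325691, minus strand: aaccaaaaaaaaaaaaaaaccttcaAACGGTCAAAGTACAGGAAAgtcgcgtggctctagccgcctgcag
Not called, nearest Gm49539, chr15:85634881-85634950, minus strand: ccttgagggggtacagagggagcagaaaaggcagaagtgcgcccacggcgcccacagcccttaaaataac
The site in Scube2 scored 20.8 and that near Erc2 14.96, and both lie in runs of short repeated words. The Trpm6 window, a run of the words aaggc and aaaggc, scored 6.09 and stayed under the threshold. The Cpt1a site, the single match among the 4 uncalled members, scored 10.3, just above it.

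HELLS counts were somewhat higher at distal than at promoter peaks. The median raw count per distal peak was 66 and 53 in the HELLS libraries, beside 8 in IgG and 15 in input, and at promoter peaks it was 55 and 48, beside 10 and 16. These are raw counts of libraries of unlike depth, whose totals are not in the peak table, so that no enrichment was computed from them. Counts in the HELLS libraries had a Spearman correlation of 0.83 over the 1279 distal peaks, which share the width of each peak. The largest was the member in an exon of Scube2, which encodes a secreted protein, with 641 and 450 counts against 42 in IgG and 42 in input. The member in an intron of Trpm6, a magnesium channel gene, followed with 355 and 205 counts against 7 and 16. A gene is named only to place a site: no transcript was measured in these data.

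Of the distal peaks, 621 (48.6%) lay in introns, 508 (39.7%) between genes and 150 (11.7%) in exons, where other distal ATAC regions had 44.0%, 44.4% and 11.6%. The exact 95% intervals of the members were 45.8 to 51.3 for introns and 37.0 to 42.5 between genes, and cover counting error only. Context was read from any overlap of the whole interval, with exons taken first. Widths were not matched between the sets, and the difference between their shares was not tested. The submitters' segmentation of the B6 genome into 11 chromatin states, numbered without names in the file, placed the distal peaks differently. State 11, which covers 42% of autosomal bases, held 617 of 1279 midpoints (48.2%, exact 95% interval 45.5 to 51.0), against 10.3% of other distal ATAC regions and 2.68% of promoter HELLS peaks. State 6 held 11.3%, state 9 10.7% and state 8 7.11%, against 2.74%, 1.80% and 1.69% of other distal ATAC regions. These states cover 7.60%, 22.1% and 4.985% of autosomal bases. State 1, which held 75.9% of promoter HELLS peaks, held 3.83%, and states 1 to 5 together held 262 members. State 7, which holds 69.0% of the DMC1 peaks of Hells het testis, held 6 of the 1279 (0.469%, 0.172 to 1.02), near its 0.584% share of autosomal bases. Other distal ATAC regions had more in state 7 (4.445%).

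**Figure D2:**
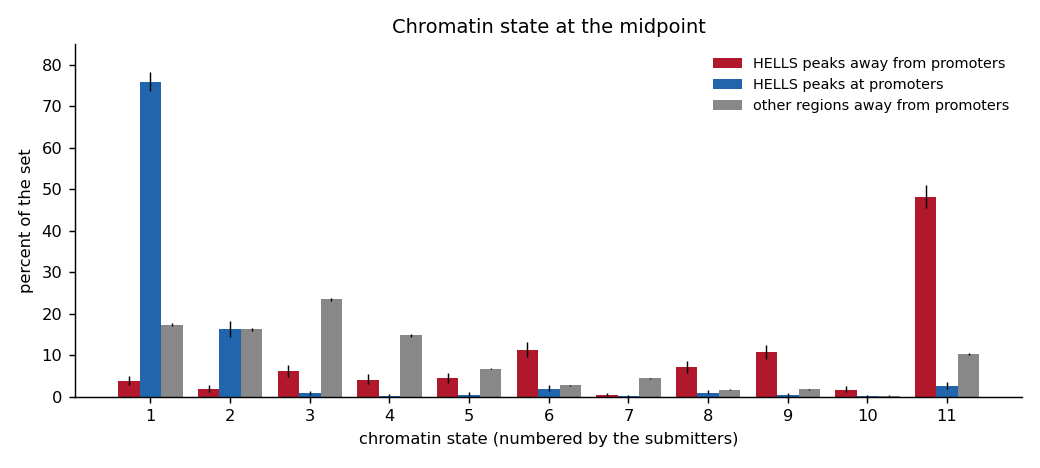
Share of midpoints, in percent, in each of the 11 chromatin states of the B6 genome for distal HELLS peaks, promoter HELLS peaks and other distal ATAC regions; whiskers are exact 95% binomial intervals. Distal HELLS peaks stand highest in state 11 (48.2%) and promoter HELLS peaks in state 1 (75.9%).

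DMC1 peaks of the Hells animals overlapped a small share of the distal HELLS peaks. The same share was not computed for other distal regions, so whether it is low for distal sequence is not known. A DMC1 peak of the Hells het list overlapped 28 of 1279 (2.19%, exact 95% interval 1.46 to 3.15), one of the Hells CKO list overlapped 27 (2.11%, 1.396 to 3.06), and 4 were shared. Promoter HELLS peaks had a het DMC1 peak in 4.20% (3.20 to 5.39) and a CKO DMC1 peak in 73.2% (70.8 to 75.6). Each list is 1 per genotype, so that its spread between replicates is unknown, and no DMC1 list of KI testis was used.

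The comparison of KI with B6 germ cells asks where chromatin opens when the Prdm9 allele is exchanged. Open chromatin at distal HELLS sites was scarce in B6 and plain in KI. The median level over 1239 ATAC regions that overlap a distal peak was 1.61 and 1.49 CPM in the B6 libraries and 13.4 and 12.5 CPM in the KI libraries. In B6 these regions stood below other distal ATAC regions (3.48 and 3.67 CPM), and in KI well above them (3.97 and 4.08 CPM). Promoter HELLS regions stood at 80.4 and 63.2 CPM in B6 and 65.6 and 60.4 CPM in KI. Distal HELLS regions took 0.459% and 0.445% of all B6 counts and 2.00% and 1.94% of all KI counts.

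Of 1239 distal HELLS regions tested, 1192 (96.2%) were higher in KI and 0 lower (edgeR quasi-likelihood F test, Benjamini-Hochberg adjusted p under 0.05), where 7.14% of all 81887 regions were higher and 2.27% lower. At an unadjusted p under 0.05, 1198 were higher and 1 lower, and DESeq2 called 1188 higher. The log2 fold change had a median of 3.04 (quartiles 2.55 and 3.46, range −0.39 to 5.45), beside 0.02 over all regions, and 1207 of 1239 lay above 0. Promoter HELLS regions had 116 of 1343 higher and a median of −0.17. Other distal regions had 7.11% higher. The members were called from HELLS ChIP in KI alone, so that sites with more signal in KI were favoured beforehand. The part of this choice in the shares was not tested. Distal HELLS regions made up 1192 of the 5847 regions that were higher in KI (20.4%), and 77 of the 100 with the lowest p. Without the second B6 library, which leaves 1 in that group, the median log2 change was 2.97. The level of distal less promoter HELLS regions, taken per library on the log2 scale, was −5.13 ± 0.18 (SD, n = 2) in B6 and −2.24 ± 0.02 (SD, n = 2) in KI, a difference of 2.89 (exact permutation test, two-sided p = 0.333, the smallest that 2 against 2 libraries allow).

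H3K9ac followed the same pattern with a wider span. Over 1259 regions the median level was 0.839, 3.02 and 0.979 CPM in B6, 32.3 and 36.0 CPM in KI and 2.90 CPM in Spo11/Spo11. The second B6 library stood above the other B6 libraries, and every KI library stood above all of them. Promoter HELLS regions had medians between 51.4 and 69.3 CPM in these 6 libraries, and 64.6 and 55.4 CPM in the KI libraries. Distal sites in KI thus came closer to promoter levels than in B6 but stayed under them. Levels are per region and were not scaled to region width. The share of all counts at distal HELLS regions rose from between 0.641% and 0.807% in B6 to 4.07% and 4.65% in KI.

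Of 1259 distal HELLS regions tested for H3K9ac, 1176 (93.4%) were higher in KI and 0 lower (edgeR quasi-likelihood F test), where 12.1% of all 91909 regions were higher and 0.208% lower. The log2 fold change had a median of 4.49 (quartiles 3.31 and 5.15), beside −0.07 over all regions and 0.17 at promoter HELLS regions, of which 115 of 1342 were higher. As for ATAC, the choice of members in KI favoured a higher level in KI, and its part was not tested. The number called rested on B6 library 3 and on the KI libraries, at the members as over all regions. Without B6 library 3, 411 member regions and 1987 of all regions were higher. Without B6 library 1 it was 1013 and 7029, and without B6 library 2 it was 1218 and 26360. Without B6 library 2, 11 member regions and 24586 of all regions were lower. Leaving out a KI library leaves 1, and the median was then 4.54 without the first and 4.38 without the second. With 1 library left out in turn the median stayed between 4.13 and 5.23. The level of distal less promoter HELLS regions was −4.84 ± 0.71 (SD, n = 3) in B6 and −0.80 ± 0.26 (SD, n = 2) in KI, a difference of 4.04 (exact permutation test, two-sided p = 0.1, the smallest that 2 against 3 libraries allow).

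**Figure D3:**
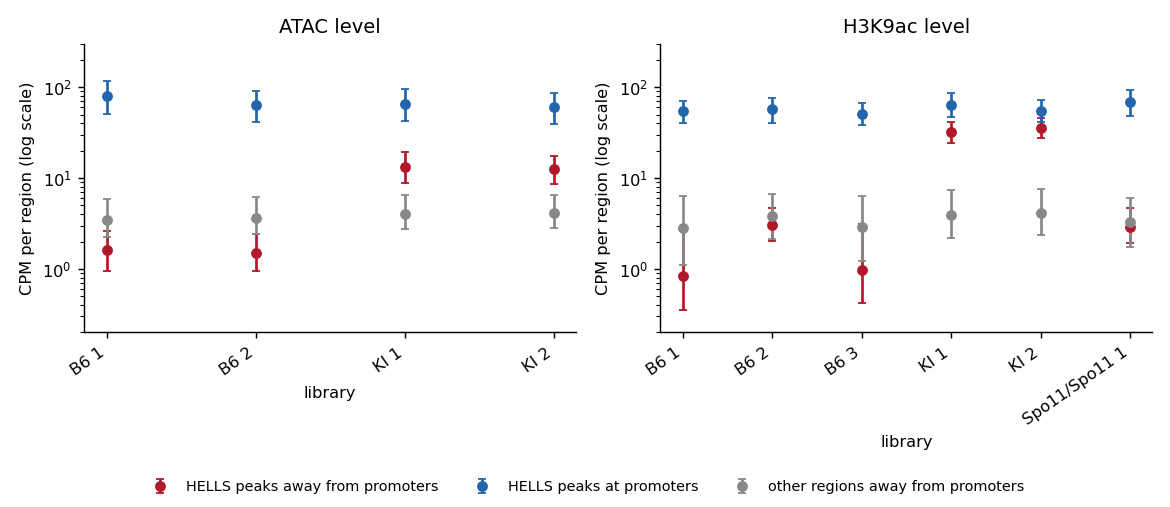
Level per region in CPM (log axis) in each ATAC and H3K9ac library; points are medians and bars the quartiles over the regions of each set. Distal HELLS regions rise from 1.61 and 1.49 CPM in B6 to 13.4 and 12.5 CPM in KI for ATAC, while promoter HELLS regions stay between 60.4 and 80.4 CPM.

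**Figure D4:**
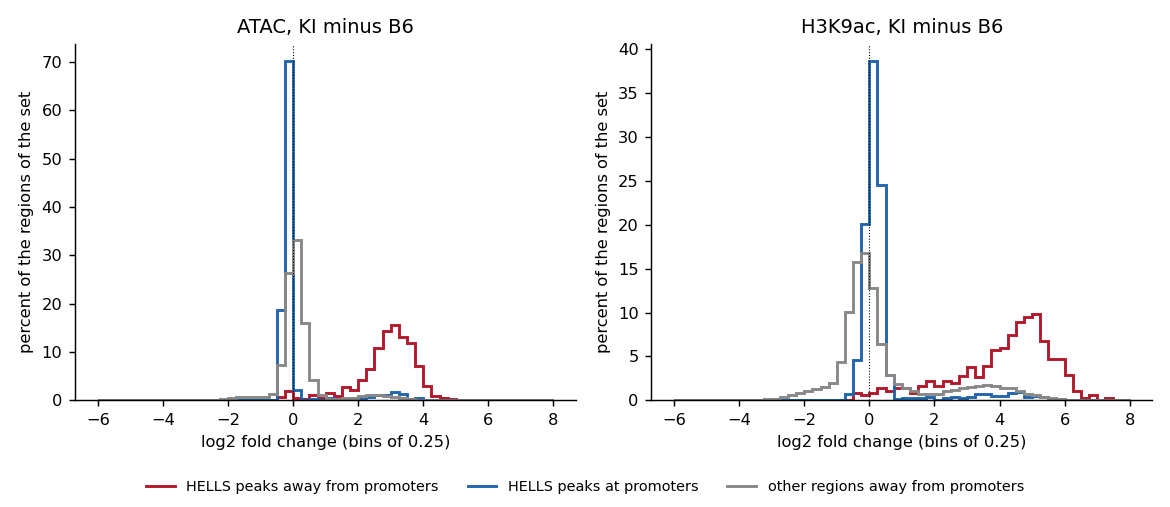
Distribution of the log2 fold change of KI over B6, as percent of the regions of each set in bins of 0.25, for ATAC (left) and H3K9ac (right). Distal HELLS regions centre on 3.04 and 4.49, and promoter HELLS regions on −0.17 and 0.17.

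The 6 members with the lowest p in ATAC were among the more open in B6, where all but the site in Bicd1 stood above the upper quartile of distal HELLS regions (2.61 and 2.44 CPM). The member at chr17:93980902-93981842, between genes, had 3.09 and 2.47 CPM in B6 and 67.3 and 58.4 CPM in KI, a log2 change of 4.50 ± 0.19 (SE; edgeR adjusted p = 2.82e-07). Its H3K9ac was 0.226, 1.95 and 0.294 CPM in B6 and 44.7 and 50.8 CPM in KI, so that neither assay overlapped between the strains. A site in an exon of Bicd1, a dynein adaptor gene, went from 2.10 and 2.18 CPM to 48.7 and 38.9 CPM (4.35 ± 0.20). In an intron of Gfra1, which encodes a co-receptor for the growth factor GDNF, the level went from 3.42 and 3.27 CPM to 54.8 and 47.0 CPM (3.93 ± 0.18). Members near Mrps30 (3.92), near 4631405K08Rik (3.94) and near AC105061.2 (4.05) were the others of the 6 with the lowest p. All 6 also rose in H3K9ac, by 4.82 to 6.07 on the log2 scale.

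For H3K9ac the lowest p-values fell on sites with close B6 replicates. The member near Rbmxl1 had 1.03, 1.07 and 1.11 CPM in B6 and 34.9 and 36.6 CPM in KI (log2 change 5.05 ± 0.17, SE; edgeR adjusted p = 0.0045). An intronic site of Ramp1, a receptor activity-modifying protein gene, had 5.94, 6.36 and 5.41 CPM in B6 and 68.4 and 69.9 CPM in KI (3.55 ± 0.14). In these members the Spo11/Spo11 library gave 3.36 and 6.88 CPM, above each B6 library and far under KI. A site in an exon of Slc22a5, a carnitine transporter gene, had no ATAC region but rose in H3K9ac by 3.49 ± 0.14.

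Both assays were read at 1227 members, and their fold changes had a Spearman correlation of 0.66 over those members. The points share the HELLS peak call and the strains. Of 1183 members higher in ATAC, 1181 had an H3K9ac region and 1141 of those were higher. HELLS counts had a Spearman correlation of 0.18 with the ATAC fold change, and of 0.40 and 0.43 with the ATAC level in the KI libraries (1230 members). With the H3K9ac level in the KI libraries it was 0.50 and 0.51 (1265 members). HELLS counts therefore ranked with the level in KI more than with the change. All of these share peak width.

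A group of 47 members was read in ATAC without being called, and most of it lay in the first 5 chromatin states. Of the 47, 46 lay in states 1 to 5, against 211 of 1183 of the members higher in ATAC. Their median level was 31.5 and 29.0 CPM in B6 and 31.5 and 30.3 CPM in KI, which is what chose them. In assays that had no part in the choice, 44 of 47 had an H3K4me3 region and 19 a CKO DMC1 peak. Among the 1183 members higher in ATAC it was 87 and 8. In the Hells ATAC table, 46 of the 47 and 117 of the 1183 had a region. That table is of the assay that made the choice, so a region there was likely beforehand. Of the 47, 46 had an H3K9ac region, and 7 of these were higher in KI, with a median log2 change of 0.07. Their midpoints lay a median of 5340 bases from a transcription start against 16310 for the members higher in ATAC, and 23.4% held a matrix match against 72.1%. The member near Ccr1, a chemokine receptor gene, had 92.7 and 85.2 CPM in B6 and 84.0 and 79.2 CPM in KI for ATAC, with both a het and a CKO DMC1 peak. The member in Cpt1a, which encodes the enzyme that commits fatty acids to mitochondrial oxidation, had 84.4 and 96.5 CPM in B6 and 88.7 and 83.4 CPM in KI. The member near Gm21182 had 212 and 192 HELLS counts but also 70 in IgG and 100 in input, against medians of 8 and 15 over all members.

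A further 49 members had no ATAC region. Of these, 38 had an H3K9ac region, 33 of which were higher in KI with a median log2 change of 4.14 over the 38, and 71.4% held a matrix match. By chromatin state, 587 of 588 members of state 11 with an ATAC region were higher in KI (median log2 change 3.18), and in states 1 to 5 it was 211 of 257 (2.00). All 133 members of state 9, 89 of state 8 and 140 of state 6 with an ATAC region were higher. The same shares were not computed for all regions of each state, so whether they are particular to the members is not known.

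Matches were also found at sites with no HELLS peak. Of other distal ATAC regions higher in KI, 2000 of 4051 (49.4%) held a match, against 5.55% of those not called and 4.91% of those lower. Among the distal HELLS peaks, members with a match had a median ATAC log2 change of 3.12 and those without 2.87, with 98.7% and 90.2% called higher. The difference between these shares was not tested, since sites are not replicates of a condition.

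The F1 hybrids carry a B6 and a CAST copy of each site in the same nucleus, so that alleles are compared within a library. At distal HELLS sites, which were called on the B6 sequence of KI animals, the B6 copy was the more open. Sites bound only on the CAST sequence could not be members. The part of this choice in the difference between alleles was not tested. The median level over 1218 regions was 24.4 and 21.9 CPM on the B6 allele and 10.8 and 10.6 CPM on the CAST allele. Of these regions, 717 (58.9%) were higher on the B6 allele and 30 (2.46%) on the CAST allele (edgeR with the library as a block), where 9.81% of all 64121 regions were higher on B6 and 7.97% on CAST. The median log2 ratio was 0.89 (quartiles 0.14 and 1.79), and 0.93 and 0.90 in the separate libraries. Promoter HELLS regions had 136 of 1277 toward B6, 67 toward CAST and a median of 0.01, and other distal regions 3110 and 3853 of 40731. The letter that marks the B6 copy was checked on chromosome X, where 93.3% to 97.8% of counts carried it, against 50.4% to 51.2% on the autosomes.

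H3K9ac of the F1, 1 library and so without a test, leaned the same way. Over 1207 regions with at least 20 allele counts the median log2 ratio was 1.32, with 675 regions (55.9%) at least 2-fold toward B6 and 7 (0.580%) at least 2-fold toward CAST. Over all regions 12.2% were that far toward B6 and 8.93% toward CAST. The median was 0.06 at promoter HELLS regions and 0.02 at other distal regions. F1 ATAC and H3K9ac ratios had a Spearman correlation of 0.86 over 1207 members, and the ATAC libraries of 0.89 with each other over 1215. Members share the variants that assign reads to alleles in both assays.

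**Figure D5:**
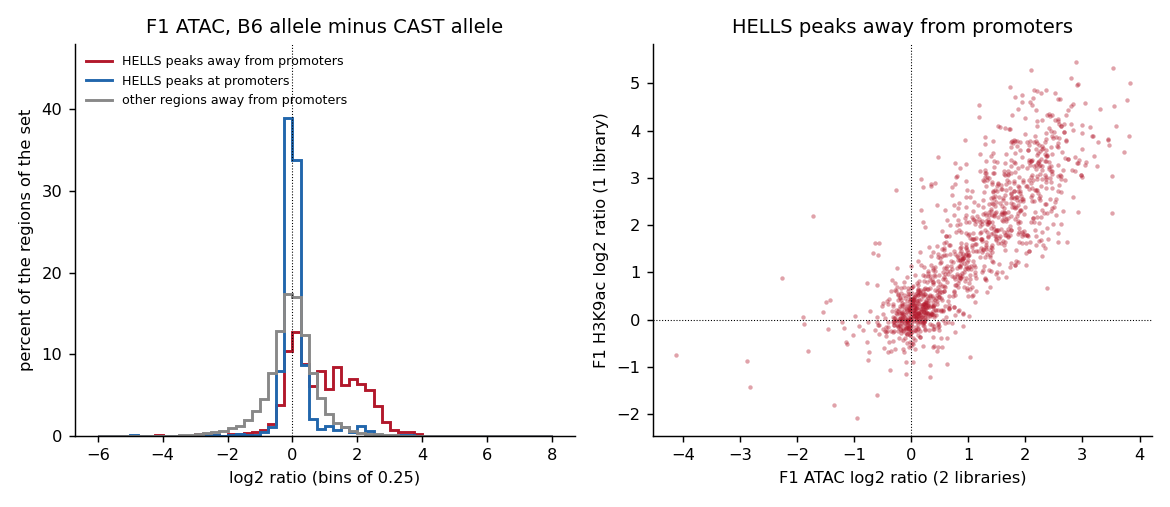
Left, distribution of the log2 ratio of B6 to CAST allele in F1 ATAC, as percent of the regions of each set in bins of 0.25; right, F1 H3K9ac against F1 ATAC log2 ratio, 1 point per distal HELLS peak. Distal HELLS sites have a median of 0.89 in ATAC against 0.01 at promoter HELLS sites, and the ratios of both assays rank together (Spearman correlation 0.86).

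The lean toward B6 was larger at sites with more HELLS counts, which were also wider peaks. With the members ranked by HELLS counts in KI testis and cut into 4 groups of 319 or 320, from lowest to highest 40.4%, 57.5%, 61.8% and 75.2% of tested members were higher on the B6 allele, and the median F1 ATAC log2 ratio was 0.39, 0.81, 0.96 and 1.34. The F1 H3K9ac median ran from 0.55 to 1.97 over the same 4 groups. Median peak width was 433.5, 543.5, 656 and 825 bases, and its part was not tested. The F1 B6-allele level rose as well, from 16.3 to 37.9 CPM in the first F1 library, and with it the counts behind each call. The CAST-allele level went from 8.87 to 13.6 CPM. Over 1224 members the Spearman correlation of HELLS counts with the F1 log2 ratio was 0.24. KI animals carry the B6 genome at these sites, so that HELLS was measured on the B6 sequence.

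Among members toward B6, those with the lowest p leaned that way in both F1 libraries. The Eya1 site, in an intron of this transcriptional co-activator gene, had 102 and 85.9 CPM on B6 and 7.18 and 6.44 CPM on CAST, a log2 ratio of 3.78 ± 0.16 (SE; edgeR adjusted p = 3.8e-117). Its H3K9ac counts were 248 on B6 and 9 on CAST. The member at chr17:93980902-93981842 had 199 and 173 CPM on B6 against 10.8 and 15.9 CPM on CAST (3.81 ± 0.12). The members in introns of Plxna4, a semaphorin receptor gene (3.72 ± 0.15), and Itpr2, a calcium release channel gene (2.58 ± 0.11), also leaned to B6. At the member near Gm16283 the ATAC ratio was 2.37 while H3K9ac counts were 212 and 133, a ratio of 0.67.

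The 30 regions toward CAST were less alike in the other mark. An intron of Rps6ka2, a ribosomal S6 kinase gene, held a site that had 42.1 and 39.1 CPM on B6 and 290.3 and 309 CPM on CAST (−2.88 ± 0.085; edgeR adjusted p = 5.9e-246), and H3K9ac counts of 105 and 193. Another, in Jak1, a cytokine receptor kinase gene, had 3.51 and 8.37 CPM on B6 and 104 and 101 CPM on CAST (−4.13 ± 0.16), with H3K9ac counts of 50 and 85. The member near Gm27449 leaned to CAST in ATAC (−2.26) and to B6 in H3K9ac (0.89, 205 against 110 counts). Over the 30 members the median H3K9ac ratio was −0.21, whereas over the 720 members toward B6 it was 2.28. The read-assignment variants at each site were not examined.

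Loss of HELLS could be read at few of these sites, because the tables of the Hells animals hold few of them. The Hells ATAC table had a region at 164 of 1279 members (12.8%), against 96.2% in the B6 and KI table. The germ cell marker sum was 339 and 221 CPM in wt and 324, 220.0 and 161 CPM in CKO, CKO library 3 being the lowest. Sertoli marker sums were 443 and 399 CPM in wt and 460, 398 and 454 CPM in CKO, above the germ cell sum in every library. Regions were present for 2 of 4 blood markers (94.5 to 107 CPM), mostly at Cd68 (87.4 to 102 CPM). These libraries therefore hold much signal at promoters of somatic cell markers. Neither the Hells promoter nor any transcript checks the deletion in these data. Median levels at the members were 6.97 and 7.58 CPM in wt and 6.76, 7.69 and 7.41 CPM in CKO, and the groups overlapped. Of 164 regions 0 were higher and 0 lower in CKO (edgeR quasi-likelihood F test), where 0.0% of all 95033 regions were higher and 0.382% lower. At an unadjusted p under 0.05, 0 were higher and 2 lower, DESeq2 called 0 in either direction, and 2 were lower with the library identifier series as a block. The median log2 change was 0.02. In simulated libraries of this comparison on 95033 regions, 50% of 2-fold and 99% of 4-fold changes were recovered. The simulation used a fixed spread that was not estimated from these libraries, and changed only regions above a set mean count. Recovery in the real libraries can therefore be lower. These members are not a sample of all: 117 of the 163 with a KI and B6 region were higher in KI, against 96.2% of all members.

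H3K4me3 had a region at 133 members (10.4%), and 134 regions were tested. Median levels were 9.21 CPM in the wt library, 10.6 CPM in Spo11/+, 10.3 and 9.72 CPM in Spo11/Spo11 and 9.17, 9.06 and 8.43 CPM in CKO. Of 134 regions 0 were higher and 11 (8.21%) lower in CKO than in wt (edgeR; the lone wt library was assumed to vary like the other groups), where 0.0279% of all 78959 regions were higher and 11.7% lower. The share of lower regions was thus no larger than over all regions. Sertoli marker sums were 615 to 891 CPM in CKO and 552 CPM in wt, and germ cell sums 223 to 348 and 259 CPM. The median log2 change was 0.04, beside −0.02 over all regions and 0.38 at promoter HELLS regions, of which 0 of 1248 were called in either direction. Without the second CKO library 6 were higher and 12 lower, and without the first 2 and 11.

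Each member was read in the H3K4me3 region that overlaps it most, and every distal member lower in CKO by that reading had a het DMC1 peak. By that reading 10 members were lower, and the remaining region of the 11 was not traced to a member. Of these 10 members, 10 had a het DMC1 peak, 5 lay in state 7 and 7 held a matrix match. All 10 were higher in KI than in B6 by ATAC. All 5 members of state 7 with an H3K4me3 region were lower, and of all 12807 tested regions of state 7, 67.1% were lower. Of the 9223 regions lower over the whole genome, 8591 lay in state 7, the state that holds most het DMC1 peaks. The share of those 9223 with a het DMC1 peak was not computed, so the overlap is not shown to be particular to the members. The member in an intron of Ctbp1, a transcriptional co-repressor gene, had 8.79 CPM in wt and 1.21, 1.19 and 0.770 CPM in CKO, with 17.9 CPM in Spo11/+ and 14.97 and 12.1 CPM in Spo11/Spo11 (log2 change −3.05 ± 0.30, SE; edgeR adjusted p = 0.000335). The member in an intron of Plxna4 had 6.02 CPM in wt and 0.995, 0.774 and 0.440 CPM in CKO (−3.01 ± 0.37). The members in exons of Gm26890 (−2.77 ± 0.25) and of Prkca, a protein kinase C gene (−2.61 ± 0.34), were the others with the lowest p. In the H3K4me3 regions of these 4 members the CKO libraries lay under every library with HELLS. The Prkca peak (chr11:107935977-107936454) met its H3K4me3 region (chr11:107934602-107935998) only at an edge, so that most of that region lay beside the peak. Where more of the peak had to lie inside the region, 7 of 112 member regions were lower.

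For ATAC all 4 sites stood above the median of distal HELLS regions in both B6 libraries, the lowest being the Prkca member with 3.35 and 2.01 CPM. There the Ctbp1 member had 9.93 and 5.79 CPM in B6 and 21.1 and 19.4 CPM in KI, and the Plxna4 member 5.82 and 4.70 CPM in B6 and 27.7 and 24.9 CPM in KI, against a median of 1.61 and 1.49 CPM in B6 over all distal HELLS regions. Their H3K9ac in the B6 libraries differed: the Ctbp1 member had 4.23, 18.4 and 4.66 CPM and the Plxna4 member 2.71, 16.0 and 2.51 CPM, the second library being the high one in both. Of the 28 members with a het DMC1 peak, 24 were higher in KI by ATAC and 16 by H3K9ac, and 10 of the 17 with an H3K4me3 region were lower in CKO. A site in an exon of Polr3b, an RNA polymerase III subunit gene, had the most HELLS counts of these (231 and 181) and no H3K4me3 region. Of the 27 members with a CKO DMC1 peak, 25 lay in states 1 to 5, 8 were higher in KI by ATAC and 26 had an H3K4me3 region, 1 of which was lower in CKO.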

How the data were processed

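ATAC, H3K9ac, H3K4me3 and HELLS tables hold raw counts of reads per region, and the F1 table holds estimated counts per allele, as deposited by the authors; the latter were rounded. The submitters' processing notes name CASAVA, BWA 0.7.15, Bowtie 0.12.9, MACS 1.4.2 and mm10. For single files the tool and its filters are not stated in the labels or headers. DMC1 lists and the segmentation gave positions only. Transcription starts were from GENCODE M21 (1000 bases either side). In the tables, 10 columns matched no sample by name and were not used. B6 and KI ATAC columns name the strain, not the sample.

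Member regions were table regions overlapping a member peak by at least 1 base. Whole tables were fitted with edgeR 4.0.16 (TMM scaling, filterByExpr, quasi-likelihood test, Benjamini-Hochberg threshold 0.05) in R 4.3.3; H3K9ac and H3K4me3 fits held all their groups, and F1 fits had the library as a block and needed 20 allele counts. F1 H3K9ac ratios used a pseudocount of 1. Levels are TMM-scaled CPM, with 0.5 added before log2 for the difference between sets. DESeq2 1.42.0, other scalings, filters, overlaps and leaving out libraries were alternatives. The fits were tested on simulated data with a fixed spread not taken from the libraries, with changes only in regions above a set mean count. There the ATAC KI against B6 step (81887 regions) recovered 60% of 2-fold and 100% of 4-fold changes. HELLS counts were ranked after scaling within the peak list, not to library totals, which are not in the table. Words were read with pysam 0.24.0 and Python 3.11.15.

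Named sites were those with the lowest p per comparison and direction, those with the most HELLS counts, the most among members not called in ATAC, and the most among those with a het DMC1 peak. Members, marker lists and this rule were chosen with earlier results of these data known. Precision is limited by 1 to 3 libraries per group and, for low regions, by few counts.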

Additional observations from a re-analysis of the deposited data

How the results depend on the processing

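No paired analysis was possible by replicate number, because the labels give none. Library identifier series do pair 2 Hells CKO with 2 Hells wt ATAC libraries and 1 CKO with the wt H3K4me3 library. Of 183 alternative values, 156 stayed on the same side or within the spread between libraries. In the KI against B6 fits, counts called with 1 library left out moved over all regions as well as at the members. ATAC KI against B6: leaving out 1 library in turn gave 1176 to 1202 higher and 0 to 14 lower regions with medians of 2.97 to 3.10, and library size alone a median of 3.11. H3K9ac: the same gave 0 to 1218 higher, 0 to 11 lower and medians of 4.13 to 5.23. Hells ATAC: with the series as a block, where CKO library 3 has no partner, 2 member regions were lower with a median of 0.03, and 1197 of all regions against 363 without it; the median was −0.0151 with members chosen by protein-coding starts. H3K4me3: a median of 0.04 within the shared series, 1 higher and a median of 0.15 with RLE factors, 3 higher and 0.15 with DESeq2, a median of −0.12 with library size alone, 3 higher against all libraries with HELLS, and 7 lower where at least 50% of the peak had to lie in the region; leaving out 1 library gave 0 to 6 higher, 10 to 12 lower and medians of −0.0021 to 0.0873. Leaving out the wt library was not run, since no wt remains. F1 ATAC medians were 0.94 without regions touching a promoter window, 0.88 with protein-coding starts, 0.87 with library size alone, 0.88 without a filter, and 0.87 to 0.89 with 1 library left out. The CKO DMC1 share was 3.38% with protein-coding starts. The share of even-chromosome members was 5.51% for the word and 71.1% for the matrix, which was chosen after seeing the data. The causes were not tested. Raising the minimum to 50 allele counts left 717 and 30 F1 calls. Depth was not tested otherwise.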
